A study of Mus musculus with 7 samples.

Results

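The liver is the main store of vitamin A, and 9 genes that take up, carry, store, convert or sense retinoids were followed here in mice that lost the Notch effector *Rbpj* in the liver. They were *Rbp4*, *Stra6*, *Lrat*, *Rdh11*, *Aldh1a1*, *Aldh1a2*, *Cyp26a1*, *Cyp26b1* and *Rarb*. Every array probe whose annotated gene name is one of these was taken, without regard to its signal, which gave 9 of the 35666 genes and 11 of the 55681 non-control probes of the array, 3 of them for *Rarb* and 1 for each of the other genes. RNA was taken from whole liver of untreated C57BL/6J mice at the age of 4 weeks. All animals carried floxed *Rbpj* alleles on both chromosomes. The 4 *Rbpj*+/+ mice lacked the *AlfpCre* transgene and had no cholestasis, and the 3 *Rbpj*-/- mice carried it and were cholestatic, so that loss of the gene and cholestasis cannot be told apart in this comparison. *AlfpCre* is driven by albumin and alpha-fetoprotein sequences and acts in hepatoblasts and in the hepatocytes and cholangiocytes that come from them, whereas stellate cells, endothelial cells and macrophages, which are in the tissue too, are not its target. Each animal gave 1 array of 1 colour, and the sex of the animals is not in the labels.

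Retinol leaves the liver bound to retinol binding protein 4, the product of *Rbp4*, which travels with transthyretin, and STRA6 is a cell surface receptor that takes retinol from this carrier in other organs. In the liver, lecithin retinol acyltransferase (LRAT) makes the retinyl esters that hepatic stellate cells keep in lipid droplets, and stellate cells that become myofibroblasts are known to lose these droplets. Retinol and retinaldehyde are interconverted by dehydrogenases and reductases such as RDH11, the aldehyde dehydrogenases ALDH1A1 and ALDH1A2 oxidise retinaldehyde to retinoic acid, and CYP26A1 and CYP26B1 break retinoic acid down. Retinoic acid binds the receptors RARA, RARB and RARG, which pair with RXR receptors on DNA. *Rarb* and *Cyp26a1* are textbook targets of this pair of receptors.

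Such receptor pairs bind direct repeats of a hexamer close to AGGTCA. The window from 250 bases before to 50 bases after each annotated start (RefSeq, GRCm38.p6) was searched on both strands for a direct repeat of AGGTCA, of its common variant AGTTCA, of the form GGGTCA or of the form GGTTCA, also of 1 with another, with a spacer of 1, 2 or 5 bases (called DR1, DR2 and DR5). All 9 genes have a window, 15 in all, and a repeat was found in 2 of them, in *Rarb* and in *Cyp26a1*. Both are DR5. They are shown because these were the only members with a match, with the hexamers in capitals, 5′ to 3′ on the strand of the gene:
Rarb: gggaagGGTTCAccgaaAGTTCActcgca
Cyp26a1: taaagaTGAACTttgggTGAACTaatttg
The *Rarb* repeat lies on the strand of the gene, at chr14:16575507-16575535 with its flanks, and covers the bases from 53 to 37 upstream of the start. The *Cyp26a1* repeat reads on the opposite strand, so that its capitals are the reverse complement of AGTTCA, and it lies at chr19:37697770-37697798 with its flanks, from 32 to 16 bases upstream. Over 32851 promoter windows of all genes, 0.0974% hold a DR5 of these hexamers, 0.222% a DR1 and 0.268% a DR2. *Rarb* and *Cyp26a1* were already named as textbook targets, and the forms searched include both hexamers of the *Rarb* match. These shares are therefore no measure of how unexpected the 2 matches are. The whole stretch of 250 bases before the *Rarb* start (chr14:16575477-16575726, minus strand) is given because *Rarb* had the largest difference of the members that passed the test:
Rarb upstream: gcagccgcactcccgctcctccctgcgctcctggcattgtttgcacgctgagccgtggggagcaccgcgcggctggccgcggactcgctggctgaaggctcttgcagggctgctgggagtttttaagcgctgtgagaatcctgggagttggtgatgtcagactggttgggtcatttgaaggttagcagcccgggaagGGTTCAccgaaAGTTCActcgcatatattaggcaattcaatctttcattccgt
A match describes the letters of a window and not a bound site, and no match in the other 13 windows says only that these letters are not there.

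Values are log2 intensities after subtraction of the 75th percentile of the array, so that 0 marks a probe as bright as that percentile. Where the values of single animals are listed, they follow the order Rbpj +/+_1155, next Rbpj +/+_1156, next Rbpj +/+_1024, last Rbpj +/+_991, and then Rbpj -/-_N3, Rbpj -/-_N5 and Rbpj -/-_2866. A probe was tested if every array of 1 genotype or of both had it well above background, and a probe passed at a Benjamini-Hochberg adjusted p below 0.1 in limma over all tested probes. The arrays had 22887 to 36141 probes well above background. On the arrays of Rbpj +/+_1156 and Rbpj -/-_N3 dim probes were brighter, with a median intensity of 18.7 and 29.6 against 4.99 to 7.75 on the other arrays. All arrays lay on 1 slide, but the *Rbpj*+/+ arrays were in 1 row and the *Rbpj*-/- arrays in the other, so that row and genotype cannot be told apart. Nothing in the labels says more about replicates than that each array is 1 animal, and precision is limited by having only 7 arrays. The *Rbpj* probe with the brighter signal fell from 0.60 ± 0.34 (SD, n = 4) to -0.54 ± 0.22 (SD, n = 3), a difference of -1.13 (SE 0.24, adjusted p = 0.0115), without overlap of the genotypes, and the other *Rbpj* probe fell too, with a difference of -1.63 (adjusted p = 0.0723). Where these probes lie against the deleted part of the gene is not given in the sources used here. Hepatocyte markers were present as the label whole liver says, with 10 of 10 tested.

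Of the 11 probes, 9 probes for 8 genes were tested, and 3 passed. The main *Rarb* probe and *Lrat* were higher and *Rbp4* was lower in *Rbpj*-/- liver. These 3 are 33.3% of the tested member probes, beside 33.6% of all 24548 tested probes (14.3% higher and 19.2% lower), so that the members passed about as often as any probe. The same 3 probes were those without overlap of the genotypes, 33.3% beside 35.6% of all tested probes. The median difference of the tested member probes was 0.37 on the log2 scale, and that of all tested probes was -0.12. This median counts *Rarb* also by its dimmer probe, which was tested through the *Rbpj*-/- group alone, where it read higher. Of the 9 differences 5 were positive and 4 negative, so that no shift of the members as a group is read from the median.

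**Figure D1:**
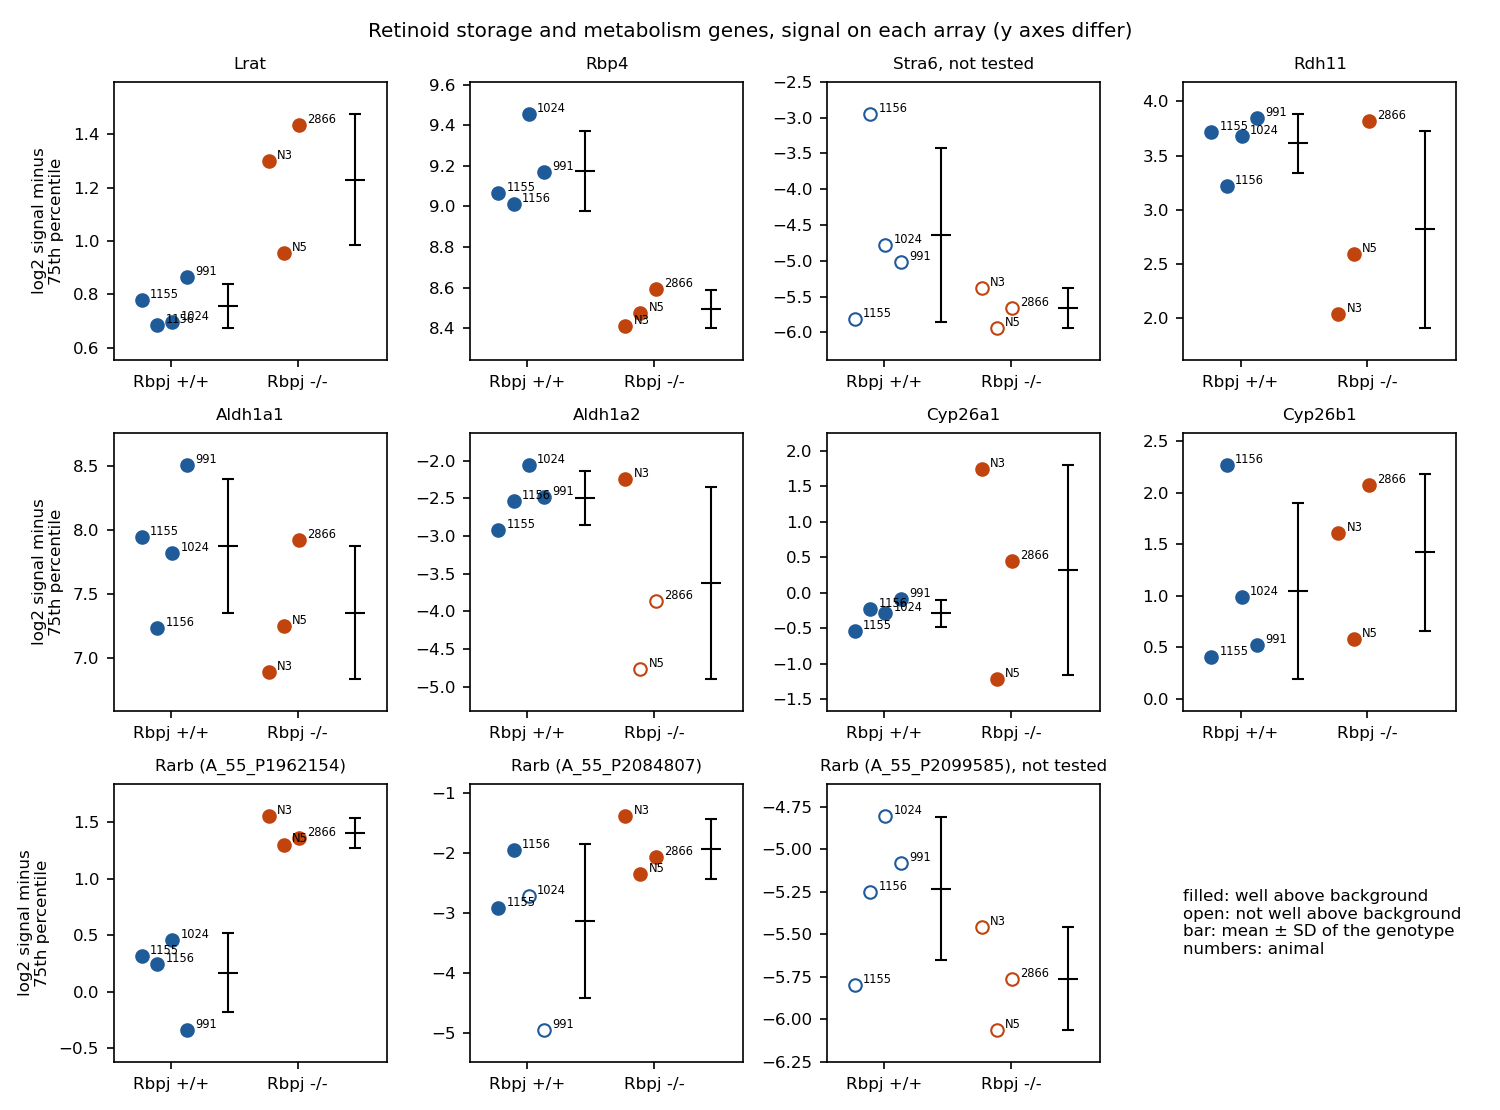
Normalized signal of the 11 probes of the 9 retinoid genes on each array (y axis, log2 intensity minus the 75th percentile of the array; each panel has its own scale), with 4 *Rbpj*+/+ animals in blue and 3 *Rbpj*-/- animals in red. Filled points were well above background, open points were not, and bars give the mean ± SD. The genotypes are separate for *Lrat*, *Rbp4* and *Rarb* probe A_55_P1962154.

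The plasma carrier of retinol, *Rbp4*, was lower in *Rbpj*-/- liver, and *Stra6* was at background. *Rbp4* read 9.06, 9.01, 9.46 and 9.17 in *Rbpj*+/+ animals, and 8.41, 8.48 and 8.59 in *Rbpj*-/- animals. All 3 *Rbpj*-/- animals lay below all *Rbpj*+/+ animals, and their values were close to each other. The level was 9.18 ± 0.20 (SD, n = 4) and 8.49 ± 0.09 (SD, n = 3), a difference of -0.68 (SE 0.19, 95% interval -1.11 to -0.26, adjusted p = 0.0320, exact two-sided permutation p = 0.0286, the smallest that 4 against 3 animals can give). The fall was 1.60-fold. Its size moved with the scaling of the arrays. Before scaling, the intensities of the *Rbp4* spot were 54897, 44195, 40383 and 43063 in *Rbpj*+/+ and 48507, 46169 and 45666 in *Rbpj*-/- liver, and so overlapped, while the 75th percentile of the arrays was 57.5 to 103 in *Rbpj*+/+ and 118 to 143 in *Rbpj*-/-. With quantile normalization the difference was -0.28 and did not pass (adjusted p = 0.163), the authors' own normalized table gave -0.26 (adjusted p = 0.183), and without Rbpj -/-_N5 it was -0.67 (adjusted p = 0.104). The probe lies at chr19:38191120-38191179 (mm9).

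*Rbp4* is made by hepatocytes, and hepatocyte markers were measured beside it. In whole tissue, fewer cells of a type and less RNA per cell cannot be told apart. Of 10 hepatocyte markers, 0 were higher and 4 lower in *Rbpj*-/- liver, beside 14.6% higher and 19.5% lower of all tested genes. Among the 4 was albumin (*Alb*, named after its values were seen) with a difference of -0.78 (adjusted p = 0.0167). *Apob*, also named after its values were seen, was among them by its brightest probe (-0.97, adjusted p = 0.00809), while its second tested probe differed by 0.34. The other 6 markers did not pass, and the median difference of the list was -0.24, beside -0.13 for all tested genes. Of these 6, *Cps1*, *Tat* and *Tdo2* differed by 0.94, 0.52 and 0.20, and *Hnf4a*, *Pck1* and *Ass1* by -0.32, -0.15 and -0.07. All 6 were named after their values were seen. The summed signal of the list was 2801 to 4235 in *Rbpj*+/+ and 2346 to 2862 in *Rbpj*-/- animals, in units of the array's 75th percentile. This sum thus rests on the same scaling as the *Rbp4* values. The part of hepatocyte RNA in the fall of *Rbp4* was not tested. *Stra6* exceeded background clearly on 0 of 4 *Rbpj*+/+ and 0 of 3 *Rbpj*-/- arrays, with intensities between 1.83 and 11.1, and it was not tested. The highest of these was that of Rbpj +/+_1156, on one of the 2 arrays with brighter dim probes.

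*Lrat*, the gene of retinyl ester storage, was slightly higher in *Rbpj*-/- liver. It read 0.78, 0.69, 0.70 and 0.86 in *Rbpj*+/+ animals, and 1.30, 0.96 and 1.44 in *Rbpj*-/- animals. The *Rbpj*+/+ animals lay within 0.18 of each other, and Rbpj -/-_N5 was only slightly above the highest of them. The level rose from 0.76 ± 0.08 (SD, n = 4) to 1.23 ± 0.25 (SD, n = 3), a difference of 0.47 (SE 0.19, 95% interval 0.05 to 0.90, adjusted p = 0.0996, exact two-sided permutation p = 0.0286) or 1.39-fold. The call lies at the threshold. The difference was positive in all 19 alternatives, from 0.37 to 0.61, but passed in 7 of them, and it was lost when any single animal was left out (adjusted p from 0.102 to 0.266). The probe lies at chr3:82696805-82696864 (mm9).

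*Lrat* is a marker of stellate cells in liver. Of the other stellate cell markers, the quiescent list was mixed and the activated list was mostly higher. Of 10 quiescent stellate markers 9 were tested, 2 were higher and 1 was lower. The pericyte receptor *Pdgfrb* rose by 0.76 (adjusted p = 0.0412) and *Rgs5*, a pericyte regulator of G protein signalling, by 1.36 (adjusted p = 0.0656), whereas *Ecm1*, which encodes a secreted matrix protein, fell by 1.36 on the log2 scale (adjusted p = 0.0214). *Reln*, a defining marker, differed by 0.01 and *Hand2*, a transcription factor of these cells, by 0.08, and neither passed (adjusted p = 0.979 and 0.870), while *Gfap* was not tested. These 3 were named after their values were seen. The median difference of the list was 0.01. Its summed level was 90.0 to 178 in *Rbpj*+/+ and 49.7 to 90.8 in *Rbpj*-/- animals, but 41.7 to 69.1 and 29.0 to 58.0 without *Ecm1*, and 21.0 to 32.1 and 21.8 to 36.7 without *Ecm1* and *Vipr1*, genes that were left out after their values were seen. Of 9 markers of activated stellate cells and myofibroblasts 8 were tested, 7 were higher and none lower. *Acta2*, the smooth muscle actin of myofibroblasts, rose by 1.70 (adjusted p = 0.00603), the collagen gene *Col1a1* by 1.44 (adjusted p = 0.0156), and the summed level was 56.9 to 86.8 in *Rbpj*+/+ and 126 to 216 in *Rbpj*-/- animals, without overlap. Their part in the *Lrat* difference was not tested.

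**Figure D2:**
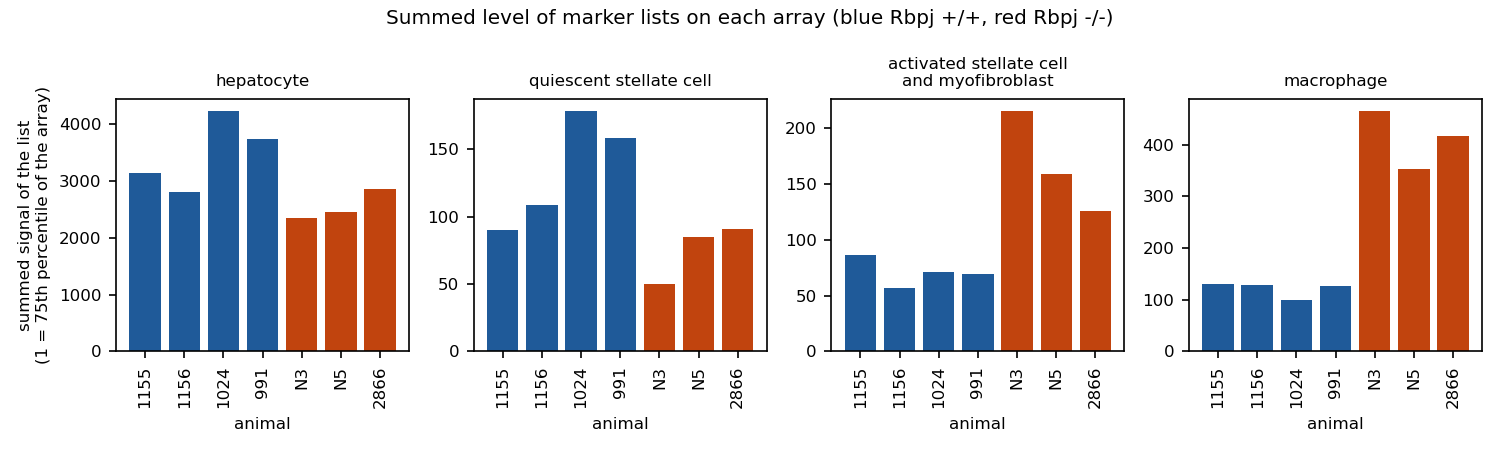
Summed signal of 4 marker lists on each array (y axis, sum of linear signals in units of the array's 75th percentile; x axis, animal), with *Rbpj*+/+ in blue and *Rbpj*-/- in red. Activated stellate and macrophage lists stood higher in all 3 *Rbpj*-/- animals, the hepatocyte list overlapped narrowly between 2801 and 2862, and the quiescent stellate list ranged from 49.7 to 178.

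None of the 3 members that reduce or oxidise retinaldehyde passed, although the mean of each was lower in *Rbpj*-/- liver. *Rdh11*, a retinaldehyde reductase, read 3.71, 3.22, 3.68 and 3.85 in *Rbpj*+/+ animals, and 2.04, 2.59 and 3.82 in *Rbpj*-/- animals. Rbpj -/-_N3 and Rbpj -/-_N5 lay below all *Rbpj*+/+ animals, and Rbpj -/-_2866 lay within their range. The difference of -0.80 (SE 0.39, 95% interval -1.68 to 0.08) did not pass (adjusted p = 0.165). Without Rbpj -/-_2866 it was -1.30 (adjusted p = 0.0209), and with array weights -0.85 (adjusted p = 0.0904).

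*Aldh1a1*, the retinaldehyde dehydrogenase of hepatocytes, read 6.89 in Rbpj -/-_N3, 7.25 in Rbpj -/-_N5 and 7.92 in Rbpj -/-_2866. This order of the *Rbpj*-/- animals was also that of *Rdh11* and of *Rbp4*. The *Rbpj*+/+ animals read 7.94, 7.23, 7.82 and 8.51, and the lowest was again Rbpj +/+_1156. The genotypes overlapped, and the difference of -0.52 (SE 0.34, 95% interval -1.29 to 0.25, adjusted p = 0.290) passed in none of 19 alternatives (-0.81 to -0.18).

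*Aldh1a2*, a second retinaldehyde dehydrogenase, was dim. All 4 *Rbpj*+/+ arrays but only 1 of 3 *Rbpj*-/- arrays had it well above background, so that it entered the test through the *Rbpj*+/+ group alone. The values were -2.93, -2.54, -2.06 and -2.48 in *Rbpj*+/+ animals, and -2.25, -4.77 and -3.86 in *Rbpj*-/- animals. Only Rbpj -/-_N3 was in the range of the *Rbpj*+/+ animals, and its array is one of the 2 with brighter dim probes. The difference of -1.12 (SE 0.51, 95% interval -2.29 to 0.04) did not pass (adjusted p = 0.143). Without Rbpj -/-_N3 it was -1.81 (adjusted p = 0.0161), with normexp background correction -0.51 (adjusted p = 0.0415), and with array weights -1.45 (adjusted p = 0.0443). Without both arrays with brighter dim probes, a setting chosen after seeing the data, it was -1.83 (adjusted p = 0.0311). Rbpj -/-_N5 and Rbpj -/-_2866 were not well above background, so that 1 of 3 *Rbpj*-/- arrays measured this gene.

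Neither gene of retinoic acid clearance passed. Of the members well above background on all 7 arrays, *Cyp26a1* differed most among animals of 1 genotype. Its intensities were 70.2, 72.6, 47.3 and 70.3 in *Rbpj*+/+ animals, and 476, 55.7 and 161 in *Rbpj*-/- animals, and all 7 arrays were well above background. On the normalized scale these were -0.55, -0.24, -0.28 and -0.09, and 1.74, -1.22 and 0.44. Rbpj -/-_N3 and Rbpj -/-_2866 lay above all *Rbpj*+/+ animals and Rbpj -/-_N5 lay below all of them, so that the highest and the lowest value were both in *Rbpj*-/- liver. The spread from lowest to highest was 7.79-fold in *Rbpj*-/- and 1.37-fold in *Rbpj*+/+ liver, a difference in spread that was not tested. The means differed by 0.61 (SE 0.57, 95% interval -0.68 to 1.90, adjusted p = 0.458). Without Rbpj -/-_N5 the difference was 1.38 and passed (adjusted p = 0.0515), and without Rbpj -/-_N3 it was -0.10 (adjusted p = 0.894), so that 1 animal decides its size and its sign. The DR5 shown above is in the promoter of this gene, and the array gives no value for retinoic acid.

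*Cyp26b1*, the other retinoic acid hydroxylase, did not share this order. It read 0.40, 2.27, 0.99 and 0.52 in *Rbpj*+/+ animals, and 1.61, 0.58 and 2.07 in *Rbpj*-/- animals. The highest value was in Rbpj +/+_1156, and the genotypes overlapped widely. The difference of 0.37 (SE 0.50, 95% interval -0.75 to 1.50, adjusted p = 0.611) passed in none of 19 alternatives (0.05 to 0.79).

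The receptor gene *Rarb* showed the largest difference of the members that passed. Probe A_55_P1962154 (chr14:17263367-17263426, mm9) read 0.32, 0.24, 0.46 and -0.34 in *Rbpj*+/+ animals, and 1.56, 1.30 and 1.36 in *Rbpj*-/- animals. The 3 *Rbpj*-/- animals were close to each other and all above the *Rbpj*+/+ animals, also before scaling, with intensities of 303 to 419 against 59.0 to 128. The level rose from 0.17 ± 0.35 (SD, n = 4) to 1.41 ± 0.13 (SD, n = 3), a difference of 1.24 (SE 0.23, 95% interval 0.72 to 1.76, adjusted p = 0.00767, exact two-sided permutation p = 0.0286) or 2.36-fold. It passed in 19 of 19 alternatives, with differences from 1.03 to 1.33 and adjusted p from 0.00120 to 0.0856. The *Rbpj*-/- arrays were brighter as a whole, with a 75th percentile of 118 to 143 against 57.5 to 103. The separation of the *Rarb* intensities before scaling is therefore no separate check on the difference.

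The other *Rarb* probes gave less. Probe A_55_P2084807, at chr14:17264648-17264707 (mm9) and annotated to the same transcript, was well above background on 2 of 4 *Rbpj*+/+ and 3 of 3 *Rbpj*-/- arrays, so that it was tested through the *Rbpj*-/- group. It read -2.91, -1.96, -2.71 and -4.95 in *Rbpj*+/+ and -1.38, -2.35 and -2.07 in *Rbpj*-/- liver. The genotypes overlapped through Rbpj +/+_1156, whose array has brighter dim probes. The difference of 1.20 (SE 0.62, adjusted p = 0.187) passed only with array weights (1.69, adjusted p = 0.0820) and without Rbpj +/+_1156 (1.59, adjusted p = 0.0867). It was 0.60 without Rbpj +/+_991, whose spot was not well above background, and -0.01 with normexp background correction. Probe A_55_P2099585, at chr14:17651424-17651483 (mm9) and annotated to another *Rarb* transcript, was well above background on no array and was not tested.

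**Figure D3:**
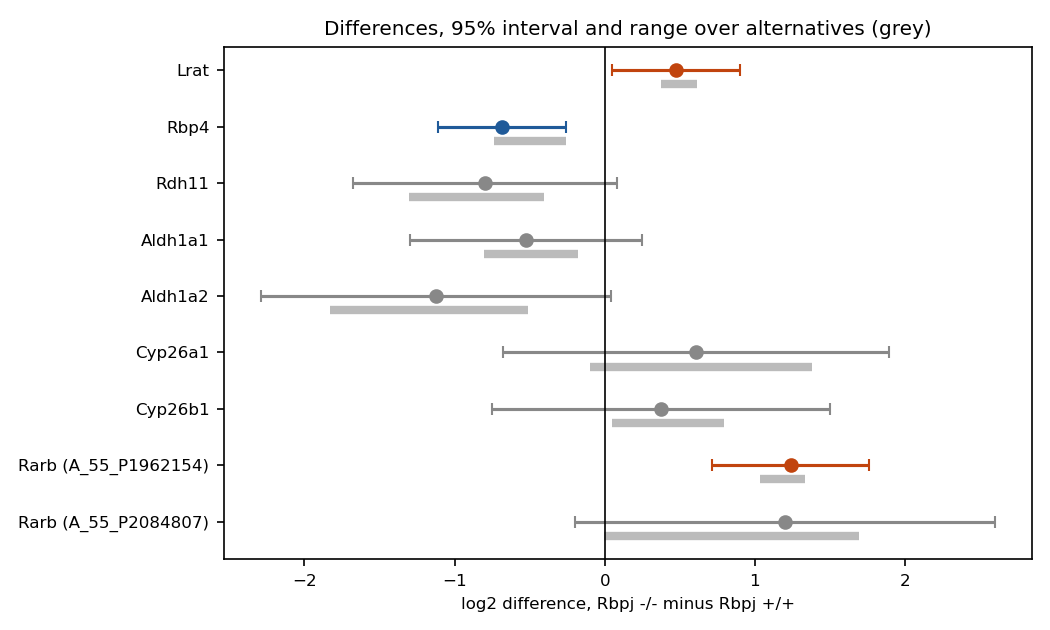
Log2 difference between genotypes (x axis, *Rbpj*-/- minus *Rbpj*+/+) for the 9 tested probes of the retinoid genes, with the 95% interval of the limma fit as bars and the range over the alternative settings as grey bands. *Rarb* probe A_55_P1962154 and *Lrat* (red) were higher and *Rbp4* (blue) lower at an adjusted p below 0.1, and grey points did not pass. The band of *Cyp26a1*, from -0.10 to 1.38, crosses 0.

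The genes whose signal was most like that of *Lrat* and *Rarb* over the 7 arrays were sought among 15649 probes of other genes that were well above background on every array. For *Lrat* these were *Mical1* (Pearson r = 0.983), *Nod1* (r = 0.981) and *Ly6a* (r = 0.980), and for *Rarb* they were *Syne4* (r = 0.988), *Sftpd* (r = 0.980) and *Strada* (r = 0.977). Probes named only by the array design, or with a compromised value on any array, were left out of this search. The 7 points share the 2 genotypes, and the highest of so many correlations over 7 points are given as a description.

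The other genes of the pathway were read from a list of 53 genes in 7 roles, of which 46 were tested. Of these, 13 were higher (28.3%, beside 14.6% of all 18755 tested genes) and 15 lower (32.6%, beside 19.5%), 18 did not pass, and the median difference was -0.31 beside -0.13 for all tested genes. Both directions occurred in 6 of the 7 roles.

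Among 5 tested genes of binding and uptake 1 was higher and 3 were lower. *Fabp5*, which can carry retinoic acid to other receptors, fell by 1.13 on the log2 scale (SE 0.32, adjusted p = 0.0347). Without Rbpj -/-_N3 *Fabp5* did not pass (-0.87, adjusted p = 0.117). The 2 other genes that were lower, named after their values were seen, were *Ttr*, which encodes transthyretin, the partner of RBP4 in plasma, at -0.77 (adjusted p = 0.0274), and *Stra6l*, a liver receptor for RBP4, at -0.66 (adjusted p = 0.0996). *Ttr* was lower by about as much as *Rbp4* on the scaled signal. There its animals did not overlap either, with 8.34 to 8.81 in *Rbpj*+/+ and 7.54 to 7.99 in *Rbpj*-/- liver. The same 75th percentiles scale both genes, 57.5 to 103 in *Rbpj*+/+ and 118 to 143 in *Rbpj*-/- liver. The *Ttr* difference is therefore no separate check on that of *Rbp4*. With quantile normalization the *Ttr* difference was -0.40 (adjusted p = 0.0874). The *Stra6l* call passed in 6 of 19 alternatives.

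Among 7 genes of ester formation and hydrolysis 2 were higher and 2 lower. *Ces1e*, a carboxylesterase with retinyl ester hydrolase activity, fell by 2.49 on the log2 scale (SE 0.42, adjusted p = 0.00499), a 5.63-fold fall. Lipoprotein lipase (*Lpl*), which can release retinol from chylomicron esters, rose by 2.16 (SE 0.29, adjusted p = 0.00208), or 4.46-fold. *Ces1e* belongs to a cluster of similar *Ces1* genes, and whether its probe separates them was not tested.

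Among 18 tested genes that interconvert retinol and retinaldehyde 5 were higher and 4 lower. *Dhrs9*, a retinol dehydrogenase, was well above background on 0 of 4 *Rbpj*+/+ and 3 of 3 *Rbpj*-/- arrays and was at least 4.32-fold higher (adjusted p = 0.0148), a bound set by the lowest signals well above background. With normexp background correction its difference was 0.48 on the log2 scale (adjusted p = 0.0929), which is below that bound, and without a filter on dim probes it did not pass (adjusted p = 0.119). *Rdh9* rose by 2.27 (SE 0.28, adjusted p = 0.00154), from 0.75 to 1.78 in *Rbpj*+/+ to 3.07 to 3.66 in *Rbpj*-/- animals. It lies in a family of close relatives, of which *Rdh7* fell by 0.79 on the log2 scale (adjusted p = 0.0290) while *Rdh1* and *Rdh16* differed by 0.60 and 0.40 and did not pass (adjusted p = 0.325 and 0.322). These 3 relatives were named after their values were seen, and whether the probes separate the family was not tested. Besides *Rdh7*, the genes of this role that were lower were *Bco2*, *Adh4* and *Dhrs3*, also named after their values were seen. They differed by -1.97 (adjusted p = 0.00194), -1.86 (adjusted p = 0.00773) and -1.27 (adjusted p = 0.0275). The *Dhrs3* call passed in 17 of 19 alternatives.

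Of the 4 other genes of retinaldehyde oxidation 1 was higher and 3 were lower. *Aldh1a3*, the third retinaldehyde dehydrogenase of its family, rose by 2.68 (SE 0.42, adjusted p = 0.00529), with 3 of 4 *Rbpj*+/+ arrays well above background, where the fit held 3 *Rbpj*+/+ values because the spot of Rbpj +/+_1156 was marked as compromised. The animals read -3.53, -2.56 and -2.67 in *Rbpj*+/+ and -0.28, 0.55 and -0.97 in *Rbpj*-/- liver, without overlap, and with normexp background correction the difference was 0.94 (adjusted p = 0.0245). The aldehyde oxidase *Aox3* fell by 1.22 on the log2 scale (SE 0.23, adjusted p = 0.00856). The other 2 that were lower, *Aox1* at -0.77 (adjusted p = 0.0730) and *Aldh8a1* at -0.69 (adjusted p = 0.0762), were named after their values were seen, and passed in only 6 and 9 of 19 alternatives.

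Of 2 tested genes of clearance, the cytochrome *Cyp2c39*, which hydroxylates retinoic acid, fell by 1.41 on the log2 scale (SE 0.38, adjusted p = 0.0293), and by 0.94 without Rbpj -/-_N3 (adjusted p = 0.0652). Of the 5 other retinoid receptors, *Rarg* rose by 1.15 (SE 0.23, adjusted p = 0.00946), or 2.22-fold, and *Rxra* fell by 0.53 on the log2 scale (SE 0.17, adjusted p = 0.0540), while a second *Rxra* probe differed by -0.13. The *Rxra* call passed in 9 of 19 alternatives. The values of *Rarg* were 0.64 to 1.06 in *Rbpj*+/+ and 1.74 to 2.40 in *Rbpj*-/- animals. *Rara*, named after its values were seen, differed by -0.15 and did not pass (adjusted p = 0.626).

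Among 5 tested genes reported to respond to retinoic acid 3 were higher and 1 was lower. *Rarres1*, a retinoic acid receptor responder, fell by 1.98 on the log2 scale (SE 0.33, adjusted p = 0.00525). The transglutaminase *Tgm2* and the corepressor *Nrip1* were among those that were higher, at 1.18 and 0.70 (adjusted p = 0.0184 and 0.0305), both named after their values were seen.

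**Figure D4:**
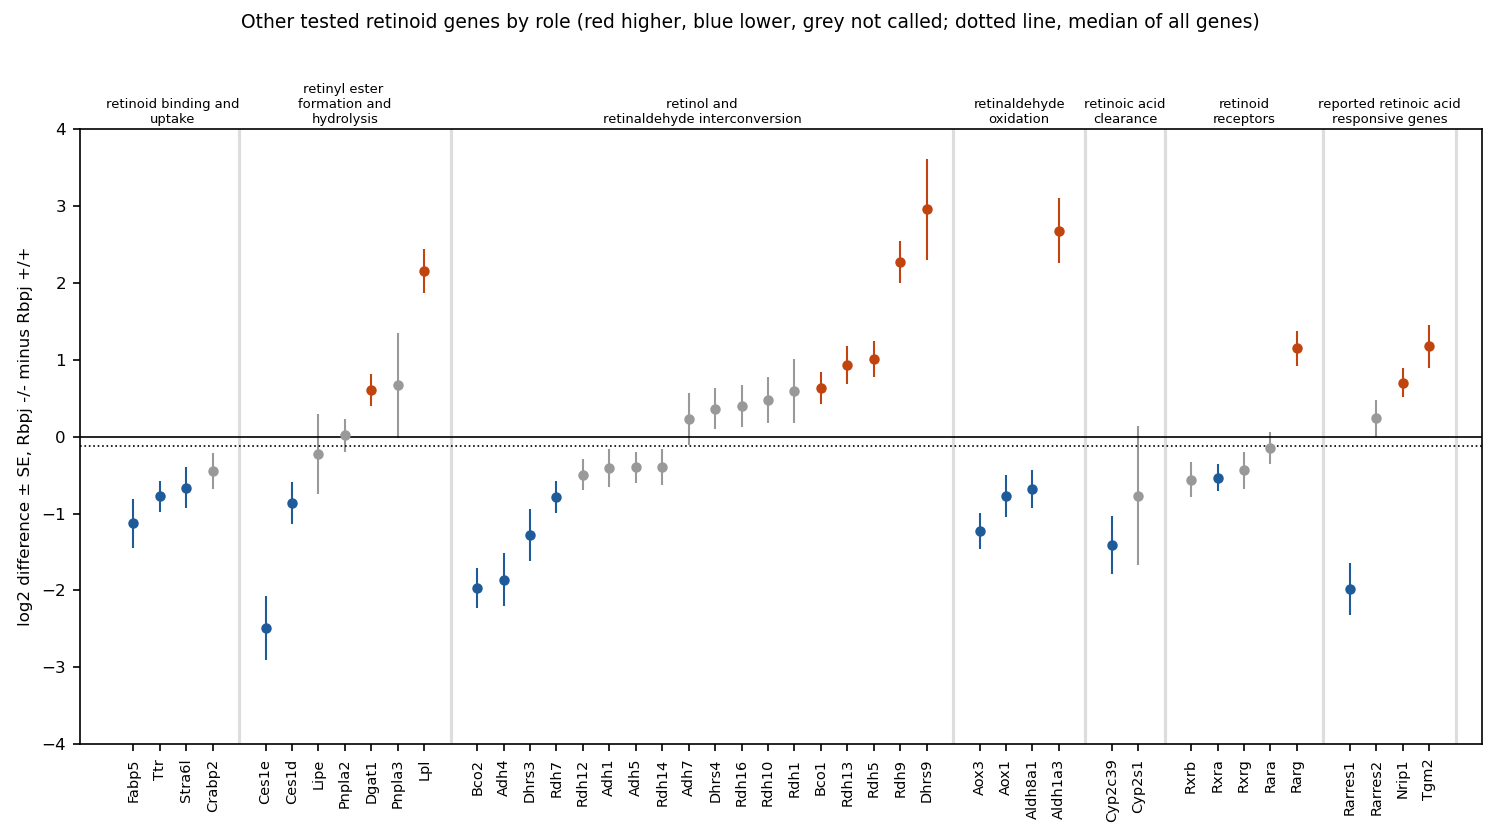
Log2 difference between genotypes (y axis, *Rbpj*-/- minus *Rbpj*+/+, ± SE of the limma fit) for 44 of the 46 tested genes of the wider retinoid list, grouped by role along the x axis. Red genes were higher and blue genes lower at an adjusted p below 0.1, grey genes did not pass, and the dotted line is the median of all tested genes (-0.13). *Dhrs9*, *Aldh1a3*, *Rdh9* and *Lpl* lie above 2, and *Ces1e* lies below -2.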

How the data were processed

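Gene expression was measured on 1-colour Agilent arrays in whole liver, for 4 *Rbpj*+/+ animals and 3 *Rbpj*-/- animals with 1 array each. The deposited intensities are signals of single spots that the authors extracted with Feature Extraction 10.7.3.1, background-subtracted and not normalized between arrays, and the deposited 0 or 1 scores mark the quality of each spot. The log2 values that the authors deposited in a processed table correlated at r = 1.00 on every array with quantile-normalized, probe-centred values, although the methods name a percentile shift. That table was used only as an alternative.

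Control probes (3671) and compromised spots (146 probe values) were left out, log2 values of spots of 1 probe were averaged, and each array was shifted by its 75th percentile. Tested probes had the marks positive, significant and well above background on every array of 1 genotype or of both. The comparison used limma 3.58.1 in R 4.3.3 without covariates, with Benjamini-Hochberg adjustment over 24548 probes and a threshold of 0.1, of which 8241 passed. This script was tested on simulated data. For single members an exact two-sided permutation test used the 35 assignments of the animals. A gene was read by its brightest tested probe. Where no array of a genotype was well above background, the fold is a bound from the lowest signal well above background.

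Alternatives were normexp background correction, quantile normalization, a percentile over probes detected on all arrays, other filters on dim probes, compromised spots kept, an intensity trend, array weights, a threshold of 0.05, the authors' table, the mean of a gene's probes, and leaving out each animal. Names came from accessions for 28331 probes, symbols for 2209 and synonyms for 174, and 24967 kept the array's name. Probe coordinates are those of the array design (mm9), and promoter sequences are from RefSeq (GRCm38.p6). Exon positions of the probes were not analysed here. The genes named are all members, *Rbpj*, the 2 largest changes that passed in each role of the wider list, *Acta2*, *Col1a1*, the quiescent stellate markers that passed, and the 3 genes most like *Lrat* and *Rarb*. Others are marked in the text. The values of 2 genes that this rule covers are not reported here. The members, lists and tests were chosen with earlier results of these data known. Tables and figures were made with Python 3.11.15, pandas 2.3.3 and matplotlib 3.10.9.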

Additional observations from a re-analysis of the deposited data

How the results depend on the processing

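The main *Rarb* probe passed under all 19 alternatives, *Rbp4* under 15 and *Lrat* under 7, and none of these 3 differences changed sign. The number of member probes that were higher was 1, in place of 2, without a filter on dim probes, with compromised spots kept, at a threshold of 0.05 and without the 2 arrays with brighter dim probes (Rbpj +/+_1156 and Rbpj -/-_N3, an alternative chosen after seeing the data), and 1 to 2 with single animals left out. The number that were lower, 1 in the report, was 0 with quantile normalization, in the authors' table and without the filter, 2 with normexp background correction and without the 2 arrays with brighter dim probes, 3 with array weights, and 0 to 2 with single animals left out. Without the filter, 4 genes of the wider list were higher and 5 lower, and with single animals left out 8 to 14 were higher and 9 to 19 lower. The lowest counts came without Rbpj -/-_N5, and for lower genes also without Rbpj -/-_N3. Over all probes, 1190 were higher and 848 lower without the filter, 3047 were lower at a threshold of 0.05, and with single animals left out 2311 to 3527 were higher and 2361 to 5492 lower. The cause of these shifts was not tested. *Cyp26a1* changed sign in 2 alternatives and *Rarb* probe A_55_P2084807 in 1 (-0.01), and neither passed there. Dim probes limit what can be said of *Stra6*, *Aldh1a2* and 2 of the *Rarb* probes: without the filter *Stra6* differed by -1.02 (adjusted p = 0.501) and *Rarb* probe A_55_P2099585 by -0.53 (adjusted p = 0.488). No paired analysis was possible because the animals of the 2 genotypes share no replicate number.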

Other observations

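Marker RNA of several other cell types of the liver differed between the same animals, and cell number and RNA per cell cannot be told apart. Of 7 macrophage markers, all tested, 6 were higher and none lower in *Rbpj*-/- liver, and their summed signal was 98.5 to 131 in *Rbpj*+/+ and 353 to 465 in *Rbpj*-/- animals, in units of the array's 75th percentile. All 6 tested proliferation genes were higher, with a median difference of 2.59 on the log2 scale and summed signals of 2.53 to 7.12 and 19.5 to 32.6. Of 6 portal fibroblast markers 4 were higher, of 7 endothelial markers 3 were higher and 1 lower, and of 5 tested cholangiocyte markers 1 was higher. Of 5 tested neutrophil markers 2 were higher and 1 lower, of 5 tested lymphocyte markers 4 were lower, and of 4 tested erythroid markers 2 were lower. Of 6 genes of other tissues, chosen because retinoid genes are also expressed in kidney, eye, intestine and lung, 5 were not tested and *Vil1*, chosen for intestine and named after its value was seen, was higher. *Vil1* was well above background on 2 of 4 *Rbpj*+/+ and 3 of 3 *Rbpj*-/- arrays, so that it was tested through the *Rbpj*-/- group alone. The part of all these lists in the differences of the retinoid genes was not tested.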
